A study of Mus musculus with 6 samples.

Results

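The genes described here are 39 mouse genes that repair DNA double-strand breaks and interstrand crosslinks, of 21883 protein-coding genes annotated on the chromosomes used. They were taken by symbol, and all 39 symbols matched a gene of the RefSeq annotation of GRCm38.p6, the assembly behind the mm10 build of the files. The study used CUT&Tag, in which an antibody on native chromatin guides a transposase that tags the DNA around its target, on B16 cells, which derive from a mouse melanoma. It concerns the glycosylase TDG in cancer cells that lack p53. The groups used here are wild-type cells with an antibody to H3K4me3 (a trimethylated histone tail residue found at active promoters) and wild-type cells with an antibody to p300 (a histone acetyltransferase of promoters and enhancers), with 1 library each. The 4 libraries for H3K9me3, from cells titled wild-type, Tdg knockout, Trp53 knockout and double knockout (the genotype label reads WT for all 6 samples), were not analysed here. Genotypes were therefore not compared. The labels list no treatment and do not say whether the wild-type line is a clone.

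A double-strand break is sensed by the MRN complex and the kinase ATM, and single-stranded DNA at stalled forks or resected ends by the kinase ATR. The break is then either copied from the sister chromatid by homologous recombination, which acts after replication, or rejoined directly by non-homologous end joining, which acts throughout the cell cycle. The Fanconi pathway unhooks crosslinks that block replication and passes the resulting break to recombination. Dividing tumour cells, melanoma cells included, depend on these pathways when replication forks stall or collapse.

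The H3K4me3 list held 27019 peaks on nuclear chromosomes with a median of 80.0 reads at the summit, and the p300 list held 6512 with a median of 39. Read totals are unknown, so where a gene has no peak, none was detectable with these libraries. Of 10 pigment cell markers, 10 had an H3K4me3 peak in the gene or within 1 kb and 8 had one within 1 kb of an annotated end. At an end, H3K4me3 marked 0 of 6 epithelial, 0 of 5 myeloid, 1 of 5 lymphocyte and 2 of 5 stromal markers, and in the gene or within 1 kb it marked 1, 0, 1 and 4 of them.

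H3K4me3 lay at almost all of the repair genes. A peak came within 1 kb of an annotated gene end at 37 of 39 members (94.9%, exact 95% binomial interval 82.7 to 99.4%, counting error only), against 50.5% of all protein-coding genes. In the gene or within 1 kb of it, all 39 had a peak, against 58.9% of all genes. The strongest peak at an end had a median fold enrichment of 8.51 over the 37 marked members, from 4.71 to 15.2, and 7.28 over all 11041 marked genes. The fold is the authors' ratio of the summit to a background, and was above the median of the whole list, 6.24, at 33 marked members (89.2%) and 68.1% of all marked genes. The summits of these strongest peaks by fold held between 62 and 306 reads with a median of 169. Other peaks at member ends held as few as 49 reads, at Wrn. The median of the highest −log10 q at an end, which grows with reads, was 95.4 in marked members and 64.0 over all marked genes. Members are not replicates and the libraries have none, so these shares and medians carry no test.

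**Figure D1:**
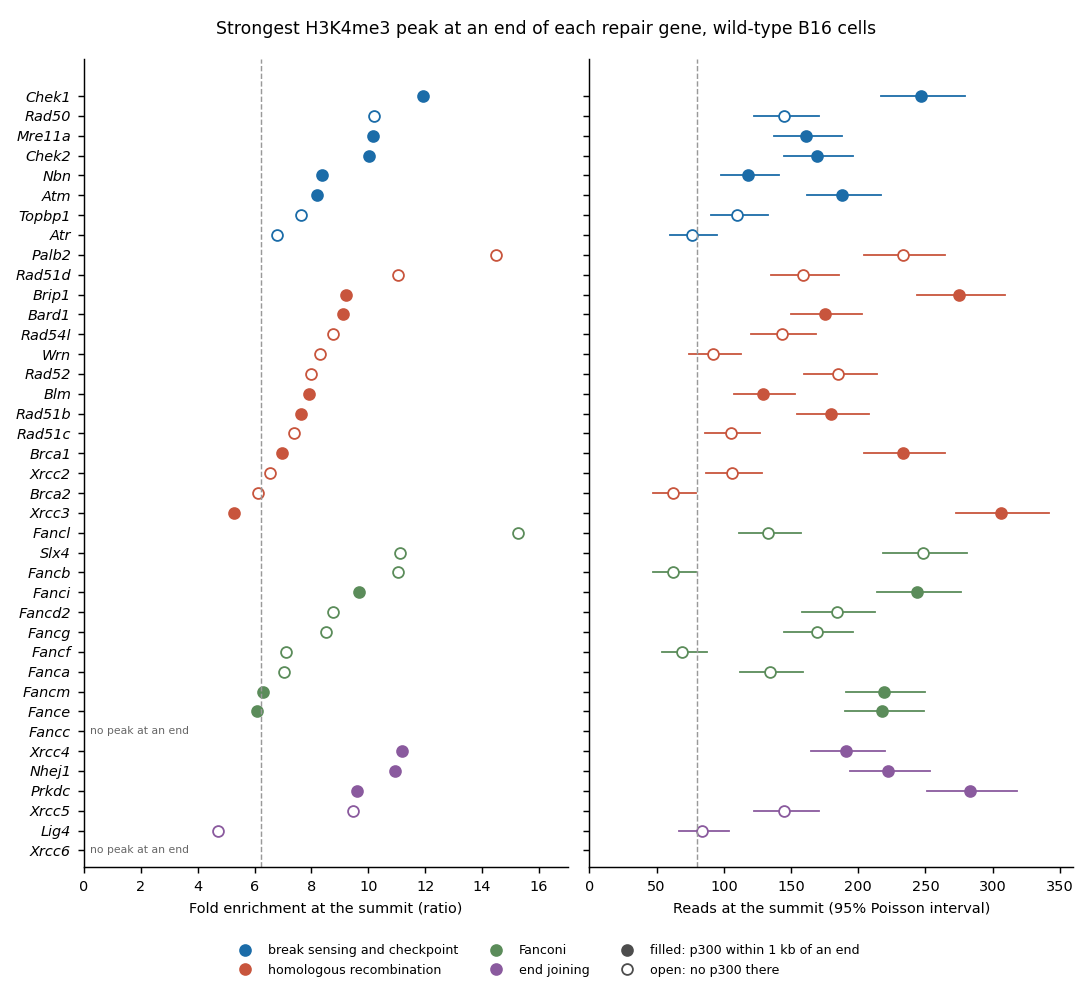
Strongest H3K4me3 peak within 1 kb of an end of each of the 39 genes, as fold enrichment (left) and as reads at the summit with 95% Poisson intervals (right), ordered within roles. Dashed lines are the medians of the whole list, 6.24 and 80.0; Fancl and Palb2 lead by fold, and Xrcc3 has a low fold of 5.28 with the most reads, 306.

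The order by fold was led by Fancl, the ubiquitin ligase of the Fanconi core complex (chromosome 11, 26387084 to 26471883), with a peak of 794 bp, fold 15.2, −log10 q of 108 and 133 summit reads (95% Poisson interval 111 to 158). Palb2, which bridges BRCA1 and BRCA2, followed with 964 bp, fold 14.5, −log10 q of 179.8 and 233 reads. The third was Chek1, the effector kinase of ATR, with 1334 bp, fold 11.9, −log10 q of 169.9 and 247 reads. The lowest folds belonged to Lig4, the ligase of end joining, with 691 bp, fold 4.71, −log10 q of 28.4 and 84 reads, to Xrcc3 with 5.28, and to Fance, a core complex subunit, with 6.08. Fold and reads ranked the genes differently. Xrcc3, a paralog of the strand exchange recombinase, stood at the 33.4th percentile of the list by fold and the 94.8th by −log10 q, with 306 summit reads (273 to 342) over a background of 57.1 reads. That background lay above those of 99.1% of marked genes, whose median was 16.8. Fancb, on the X chromosome, showed the reverse, with fold 11.0 from 62 reads over a background of 4.70.

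Only Fancc and Xrcc6 had no H3K4me3 peak at an annotated end, and both had one at a start inside the annotated gene. Fancc encodes a core complex subunit and Xrcc6 the smaller Ku subunit, which binds broken ends. The RefSeq promoter table lists a start for 32 of the 39 genes. At the listed start of Fancc, within its span of 195959 bp, lay a peak of 1515 bp, fold 7.82, −log10 q of 67.5 and 128 reads. At that of Xrcc6 lay one of 1807 bp, fold 10.3, −log10 q of 207 and 331 reads, more than at any member end. Counted by listed starts, 31 of 32 genes had H3K4me3 within 1 kb, against 52.8% of all genes with a listed start. The start itself lay inside an H3K4me3 peak at 30 of the 32. The exceptions were Slx4, a scaffold for structure-specific nucleases, and Fancm, the translocase that recognises stalled forks. Their strongest peak lay upstream of the listed start, with its summit at −2097 bp in Slx4 and −1712 bp in Fancm, and covered the outer annotated end of the gene.

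**Figure D2:**
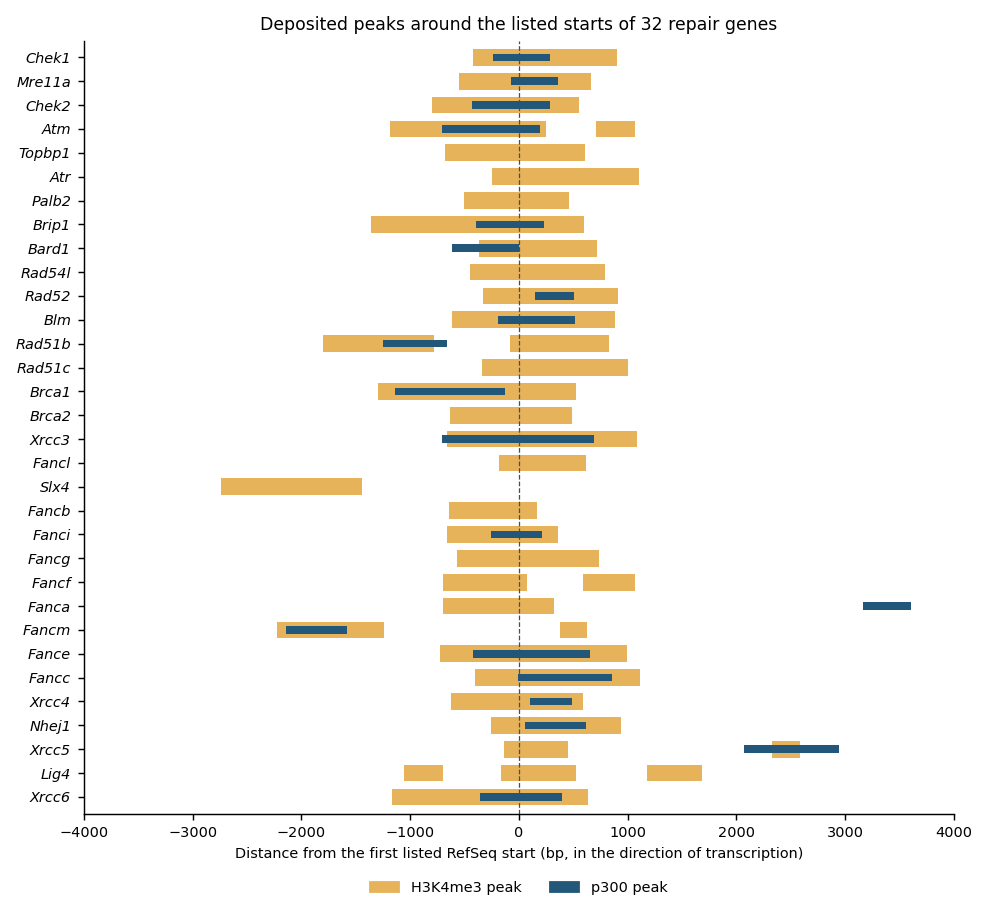
Peaks of H3K4me3 (wide bars) and p300 (narrow bars) within 4 kb of the first start that RefSeq lists for 32 of the genes, drawn to scale in the direction of transcription. An H3K4me3 peak covers the start of 30 genes and a p300 peak that of 12, and at Xrcc5 the p300 peak lies 2070 to 2943 bp downstream of the start.

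Promoter sequences of 5 genes are shown as examples. Their H3K4me3 folds run from 7.64 to 15.2, so the weaker members, down to fold 4.71, are not represented. Each run is the 250 bases before the listed start (motif counts also cover the 50 after it), 5′ to 3′ in the direction of transcription, from RefSeq GRCm38.p6. Mre11a and Xrcc4 have p300 at an end and a start facing away on the other strand. In Mre11a the p300 peak lies at −75 to 359 bp from the start. In Xrcc4 it lies 102 to 488 bp downstream, beyond the printed bases. Palb2 and Fancl have the highest H3K4me3 folds and no p300 at an end, and Palb2 also has a start facing away. Topbp1 has most E2F cores. Capitals mark matches on either strand to the GC box GGGCGG, the CCAAT box CCAAT, the E2F core TTGGCGC or TTCGCGC, the ETS core CCGGAAG, the cAMP response element TGACGTCA, the NRF1 motif GCGCATG and the cell cycle homology region TTTGAA, and matches may overlap.
Mre11a (chr9:14784404-14784653, plus strand): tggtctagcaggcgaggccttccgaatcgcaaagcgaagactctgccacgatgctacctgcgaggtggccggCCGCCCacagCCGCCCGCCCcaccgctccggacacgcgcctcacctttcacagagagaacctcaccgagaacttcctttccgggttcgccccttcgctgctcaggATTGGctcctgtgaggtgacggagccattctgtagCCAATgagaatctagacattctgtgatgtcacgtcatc
Xrcc4 (chr13:90089609-90089858, minus strand): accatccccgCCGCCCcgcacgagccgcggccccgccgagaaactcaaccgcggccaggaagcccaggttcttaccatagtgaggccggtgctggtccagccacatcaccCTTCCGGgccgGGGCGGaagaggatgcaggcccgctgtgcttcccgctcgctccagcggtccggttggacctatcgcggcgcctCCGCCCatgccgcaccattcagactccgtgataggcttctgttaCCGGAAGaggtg
Palb2 (chr7:122132947-122133196, minus strand): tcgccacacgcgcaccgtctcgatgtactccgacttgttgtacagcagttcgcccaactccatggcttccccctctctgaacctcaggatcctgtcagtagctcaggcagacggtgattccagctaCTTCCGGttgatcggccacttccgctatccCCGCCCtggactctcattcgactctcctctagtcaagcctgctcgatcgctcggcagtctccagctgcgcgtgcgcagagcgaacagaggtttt
Fancl (chr11:26386834-26387083, plus strand): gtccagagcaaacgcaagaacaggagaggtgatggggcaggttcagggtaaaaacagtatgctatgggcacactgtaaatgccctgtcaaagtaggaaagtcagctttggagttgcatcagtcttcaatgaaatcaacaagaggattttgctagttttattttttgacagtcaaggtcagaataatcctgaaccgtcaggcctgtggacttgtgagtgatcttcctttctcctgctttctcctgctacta
Topbp1 (chr9:103305077-103305326, plus strand): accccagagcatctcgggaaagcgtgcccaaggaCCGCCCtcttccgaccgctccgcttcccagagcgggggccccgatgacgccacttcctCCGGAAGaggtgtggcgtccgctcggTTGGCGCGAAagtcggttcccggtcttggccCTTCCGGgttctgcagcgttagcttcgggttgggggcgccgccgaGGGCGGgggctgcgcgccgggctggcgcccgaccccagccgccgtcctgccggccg
In Topbp1 the E2F cores on the opposite strands overlap in a single run of capitals. The Fancl window holds no match, has 47.0% G and C and an observed to expected CpG ratio of 0.182 over all 300 bases of the table's window (250 before and 50 after the start), the lowest ratio of the 32 genes.

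Sensing and checkpoint genes were marked at all 8 and had the highest share with p300 of the roles, on a small count. Of the 8, 5 had p300 within 1 kb of an end (62.5%, 24.5 to 91.5%), against 13.5% of all genes and 26.5% of marked genes. Atm, the kinase activated by breaks (chromosome 9, 53437122 to 53536828), had H3K4me3 of 1437 bp, fold 8.19, −log10 q of 101 and 188 reads, shared with the end of Npat. Its p300 peak across the same end had fold 6.59 and 27 summit reads. Chek1 had a p300 peak of fold 5.68 and 21 reads over its start, with a second of fold 6.37 at Stt3a, 40998 bp away. Chek2, the effector kinase of ATM, had H3K4me3 of 1349 bp, fold 10.0, −log10 q of 105 and 169 reads, and p300 of fold 5.52 and 31 reads. The MRN subunits differed in p300. Mre11a, the nuclease, had H3K4me3 of 1214 bp, fold 10.2, −log10 q of 101 and 161 reads, and p300 of fold 7.36 and 30 reads. Nbn, which recruits ATM, had H3K4me3 of 1443 bp, fold 8.36, −log10 q of 65.7 and 118 reads, and p300 of fold 8.11 and 50 reads. Rad50, the ATPase, had H3K4me3 of fold 10.2 and its nearest p300 peak 30031 bp away. The ATR side had no p300 at an end apart from Chek1. Atr had H3K4me3 of fold 6.78 from 76 reads and its nearest p300 43178 bp away, and Topbp1, which activates ATR, had fold 7.64 and p300 at 6783 bp.

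Recombination genes were marked at all 14, and 6 had p300 at an end (42.9%, 17.7 to 71.1%), against 26.5% of marked genes. Brca1, which with Bard1 forms a ubiquitin ligase (chromosome 11, 101488761 to 101551955), had H3K4me3 of 1825 bp, fold 6.98, −log10 q of 110.5 and 233 reads. Its summit lay at −802 bp from the listed start, on the side of the neighbouring gene Nbr1, and so did a p300 peak of fold 7.64 and 69 reads, 129 bp beyond the gene end. Inside Brca1, 21177 bp from its nearer end, H3K4me3 of fold 8.12 and 61 reads overlapped p300 of fold 6.45 and 40 reads. Bard1 had H3K4me3 of 1087 bp, fold 9.09, −log10 q of 102 and 175 reads, and p300 of fold 6.06 and 24 reads. Brip1, a helicase bound to BRCA1, had H3K4me3 of 1956 bp, fold 9.21, −log10 q of 159.8 and 275 reads, and a weak p300 peak of fold 4.99 and 20 reads. Its H3K4me3 peak was the widest where the strongest peak by fold at an end stands for each member. A weaker peak at an end of Fance was wider, 2395 bp. Palb2 had none at an end and a p300 peak of fold 8.98 and 40 reads inside the gene, 11678 bp from an end, without H3K4me3. Brca2, which loads the recombinase (chromosome 5, 150522297 to 150570147), was among the weaker genes, with H3K4me3 of 1117 bp, fold 6.10, −log10 q of 27.6 and 62 reads, and its nearest p300 peak 484360 bp away.

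Among the recombinase paralogs, Rad51b and Xrcc3 had p300 at an end, and Rad51c, Rad51d and Xrcc2 did not. Rad51b, the longest member with 550979 bp, had 11 H3K4me3 peaks in the gene or within 1 kb and 3 p300 peaks. Its strongest H3K4me3 peak at an end, of 1018 bp, fold 7.62, −log10 q of 92.0 and 180.0 reads, lay at Zfyve26, 781 bp outside the gene, and overlapped p300 of fold 5.81 and 27 reads. A separate peak of fold 6.13 and 145 reads lay over the Rad51b start without p300. Xrcc3 had H3K4me3 of 1745 bp, −log10 q of 113 and p300 of fold 3.86 and 70 reads, the lowest p300 fold and the most p300 reads at any member end. The background of that p300 peak was 17.4 reads, and those of the other 3 p300 peaks within 50 kb were 18.4 to 29.1, against a median of 5.97 in the list and a 95th percentile of 21.6. Near Rad51c it was 24.6 to 28.8 reads for 3 p300 peaks of fold 2.75 to 4.07 that lay 18327 to 43452 bp away. Within 500 kb, the p300 background had a median of 10.8 and a lowest value of 4.09 at Xrcc3, and 9.64 and 4.33 at Rad51c. The H3K4me3 background there had a median of 19.2 and a lowest value of 3.59 at Xrcc3, and 10.9 and 2.68 at Rad51c. Its median over the whole H3K4me3 list was 12.2. DNA copy number was not measured here, and the part of these backgrounds in the reads, folds and calls was not tested. Rad51c had H3K4me3 of 1342 bp, fold 7.38, −log10 q of 53.4 and 105 reads. Rad51d had its strongest peak by fold, of 1311 bp, fold 11.1, −log10 q of 106 and 159 reads, 585 bp outside the gene at Rffl. Another, of fold 9.28 and 260.0 reads, lay across its other end. Xrcc2 had 1804 bp, fold 6.53, −log10 q of 48.7 and 106 reads. Blm, a RecQ helicase, had H3K4me3 of 1501 bp, fold 7.93, −log10 q of 68.7 and 129 reads, and p300 of fold 4.96 and 22 reads, while its relative Wrn had H3K4me3 of 1041 bp, fold 8.30, −log10 q of 51.6 and 92 reads and its nearest p300 267429 bp away. Rad52, which anneals single strands, and Rad54l, a translocase, had folds of 7.99 and 8.77 without p300 at an end. The Rad52 p300 peak, of fold 5.24 and 23 reads, missed the window at 1127 bp from the end but lay 151 to 509 bp downstream of the listed start.

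Fanconi genes had the lowest share with p300 at an end, 3 of 11, with H3K4me3 at an end of 10. Fance had H3K4me3 of 1716 bp, −log10 q of 92.3 and 218 reads, with p300 of fold 4.67 and 58 reads. Fanci, which is ubiquitinated together with Fancd2, had H3K4me3 of 1025 bp, fold 9.67, −log10 q of 147 and 244 reads, with p300 of fold 5.75 and 31 reads. Fancm had H3K4me3 of 990 bp, fold 6.29, −log10 q of 95.4 and 219 reads at the end it shares with Fkbp3, with p300 of fold 8.79 and 57 reads. Fancd2 had fold 8.76 without p300 at an end, its nearest p300 peak, of fold 4.77, being 47838 bp away. The core complex genes Fanca, Fancb, Fancf and Fancg had no p300 at an end, and neither had Slx4. Fanca had H3K4me3 of fold 7.04 and Slx4 of 11.1. Fancb had 805 bp, fold 11.0 and −log10 q of 44.0, and Fancf 773 bp, fold 7.09, −log10 q of 34.8 and 69 reads. Fancg had 1305 bp, fold 8.51, −log10 q of 94.0 and 169 reads. At Fancg a p300 peak of fold 7.95 and 96 reads lay 1547 bp beyond the gene, at the end of Vcp. The listed start of Fancc, which the gene end window does not reach, carried p300 of fold 6.21 and 22 reads.

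End joining genes had p300 at an end of 3 of 6 (50.0%, 11.8 to 88.2%), against 13.5% of all genes. Prkdc, the catalytic subunit of DNA-dependent protein kinase (chromosome 16, 15637444 to 15842239), had H3K4me3 of 1479 bp, fold 9.59, −log10 q of 169 and 283 reads, shared with Mcm4, and the highest p300 fold at a member end, 9.18, from 42 reads. Nhej1, a filament factor, had H3K4me3 of 1196 bp, fold 10.9, −log10 q of 145 and 222 reads, and p300 of fold 8.16 and 40 reads. Xrcc4, the partner of Lig4, had H3K4me3 of 1217 bp, fold 11.2, −log10 q of 127 and 191 reads, the highest fold of the group, and p300 of fold 7.14 and 21 reads. The nearest p300 peak to Lig4 lay 919977 bp away. The genes of the Ku subunits had p300 away from the annotated ends. Xrcc5, the larger subunit, had H3K4me3 of 597 bp, fold 9.47, −log10 q of 87.5 and 145 reads at its start, and p300 of fold 7.39 and 85 reads at 2074 bp. At the listed start of Xrcc6, 23319 bp inside the gene, p300 had fold 4.93 and 26 reads.

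Together, 17 of 39 members had p300 within 1 kb of an end (43.6%, 27.8 to 60.4%), against 13.5% of all protein-coding genes. Since p300 peaks were found mostly with H3K4me3, the nearer comparison is with marked genes, of which 26.5% had p300 at an end, against 17 of the 37 marked members (45.9%). All 17 p300 peaks overlapped an H3K4me3 peak, and of 2957 genes with p300 at an end 2926 also had H3K4me3 at an end. The 17 peaks were modest by summit reads, with a median of 31 (20 to 70.0), where p300 peaks at the ends of any gene had a median of 37. Their median fold was 6.06 (3.86 to 9.18), and that of the whole p300 list 5.76. Of the 15 with a listed start, 13 had their summit within 500 bp of it, and the others were Rad51b and Fancm, whose p300 lay at the neighbour. The like share was not counted for p300 peaks at the ends of any gene. In the gene or within 1 kb, 23 members (59.0%) had p300, against 20.0% of all genes and 34.1% of marked genes. The median gene length was 52358 bp in members and 17170 bp over all genes, and its part in this share was not tested.

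**Figure D3:**
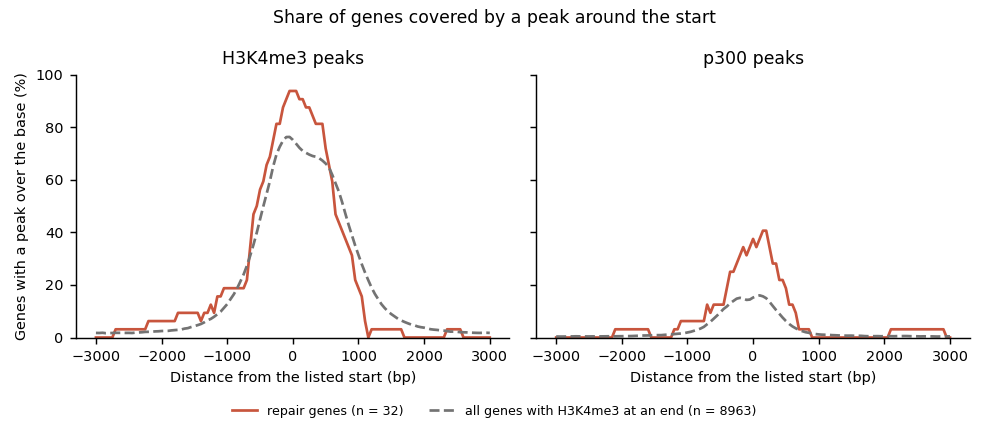
Share of genes with a deposited peak over each base around the first listed RefSeq start, for 32 repair genes (solid) and 8963 genes with H3K4me3 at an end (dashed). The H3K4me3 curve of the repair genes peaks just upstream of the start at 93.8%, against 76.3%, and their p300 curve just downstream of it at 40.6%, above that of all marked genes.

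The members with p300 had the higher H3K4me3 by −log10 q, and little difference by fold. With all marked genes ranked by −log10 q at the end and cut into 4 equal classes, 23 of the 37 marked members fell in the strongest class and 4 in the weakest. In the strongest class 15 of 23 members had p300 at an end (65.2%), against 43.4% of all genes in it. In the class below it 2 of 5 did, against 30.2%. In the next class 0 of 5 did, against 22.9%, and in the weakest 0 of 4, against 9.60%. The median −log10 q was 105 at the 17 members with p300 and 73.4 at the 20 marked members without. Over all marked genes these medians were 81.9 and 57.9. The median fold was 9.09 at members with p300 and 8.41 at those without, and over all marked genes 7.21 and 7.32. The members with the highest folds, Fancl and Palb2, had no p300 at an end. The part of H3K4me3 strength in the p300 count of the members was not tested.

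**Figure D4:**
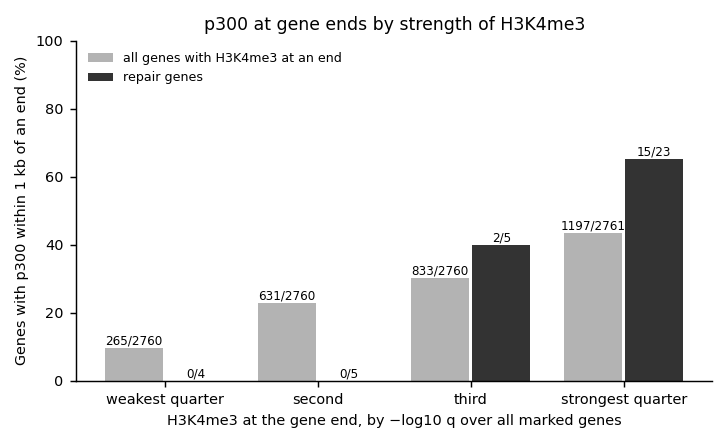
Share of genes with p300 within 1 kb of an end, in 4 classes of equal size by −log10 q of H3K4me3, for all marked genes (grey) and repair genes (black), with counts above the bars. The 17 repair genes with p300 lie in the 2 stronger classes, 15 of them in the strongest.

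Many of the repair genes had an H3K4me3 peak at an end that also lay near the end of a neighbour. Any peak at either end was counted, so the shared peak need not be the one over the start. At 21 of 37 marked members (56.8%) a peak at the end also came within 1 kb of the end of another protein-coding gene, against 30.7% of all marked genes. Beside the members whose neighbour is named here, these were Rad51d with Rffl, Wrn with Purg, Fancd2 with Emc3, Fance with Rpl10a, Fancf with Gas2, Fanci with Rlbp1, Chek2 with Hscb and Nhej1 with Slc23a3. By listed starts, 12 of 32 members (37.5%) had a start of another gene on the opposite strand, facing away, within 1 kb upstream, against 15.9% of marked genes. Of 41 other genes of the same pathways with a listed start, 15 (36.6%) had one too. The rule also takes opposite-strand starts a short way downstream, which do not face away. All those of members lay upstream, and the compared shares were not split by this. Among members the distances ran from 37 bp between Lig4 and Abhd13 to 1000 bp between Rad51b and Zfyve26. The closest others were 59 bp between Xrcc4 and Tmem167, 80.0 bp between Atr and 1700065D16Rik, 81 bp between Mre11a and Ankrd49, and 95 bp between Palb2 and Dctn5. The rest were Rad51c with Tex14, Xrcc6 with Desi1, Brca1 with Nbr1, Fancb with Mospd2, Xrcc3 with Zfyve21 and Atm with Npat. Of the 17 p300 peaks at member ends, 11 also came within 1 kb of another gene's end, a share not counted for p300 peaks at all gene ends. Over all marked genes, 1217 of the 2926 with p300 at an end had a shared H3K4me3 peak. Members with a shared peak had p300 at an end in 12 of 21 cases and members without in 5 of 16, and over all marked genes the shares were 35.9% and 22.3%. The p300 peak need not lie on the shared peak. At Fance, among the 12, p300 at an end overlapped the H3K4me3 peak over the start, and only the peak at its other end lay near Rpl10a. In a shared promoter a peak cannot be assigned to either gene.

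Farther out, 30 members had a p300 peak no more than 50 kb from an end (76.9%, 60.7 to 88.9%), against 43.6% of all genes and 62.1% of marked genes. Of the marked members 28 had it (75.7%). The median distance from a gene end to the nearest p300 peak was 2074 bp in members and 72868 bp over all genes, marked and unmarked together. The distance classes below are also set against all genes, not marked genes alone. By distance to the nearest peak, 17 members stood within 1 kb, 6 at 1 to 10 kb (15.4%, all genes 9.62%) and 7 at 10 to 50 kb (17.9%, all genes 20.4%). It lay over 100 kb away at 8 (20.5%, all genes 44.4%), which were Brca2, Rad51d, Xrcc2, Wrn, Fancb, Fancf, Fancl and Lig4. Rad54l lay between them and those within 50 kb, at 70092 bp. Fancl, with the highest H3K4me3 fold, had its nearest p300 peak 2615880 bp away, and Fancb 4126113 bp. The members with most p300 peaks within 50 kb were Xrcc3, Fancg and Xrcc5 with 4 each, and Topbp1, Brca1, Rad51b, Rad51c, Fancc, Fance and Nhej1 had 3. The 57 distinct peaks within 50 kb had folds from 2.75 to 10.2 with a median of 5.92, and 84.2% overlapped H3K4me3, as did 85.5% of the whole p300 list. The strongest, of fold 10.2 and 297 reads over a background of 28.2, lay 34348 bp from Xrcc3. Of the 57, 24 came within 1 kb of the end of another gene, a share not counted over the whole p300 list. At the limits of the windows, the p300 peaks of Nbn at 296 bp and Rad51b at 658 bp were the farthest inside 1 kb, and a second one at Fance, 1066 bp from the end, lay just outside.

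**Figure D5:**
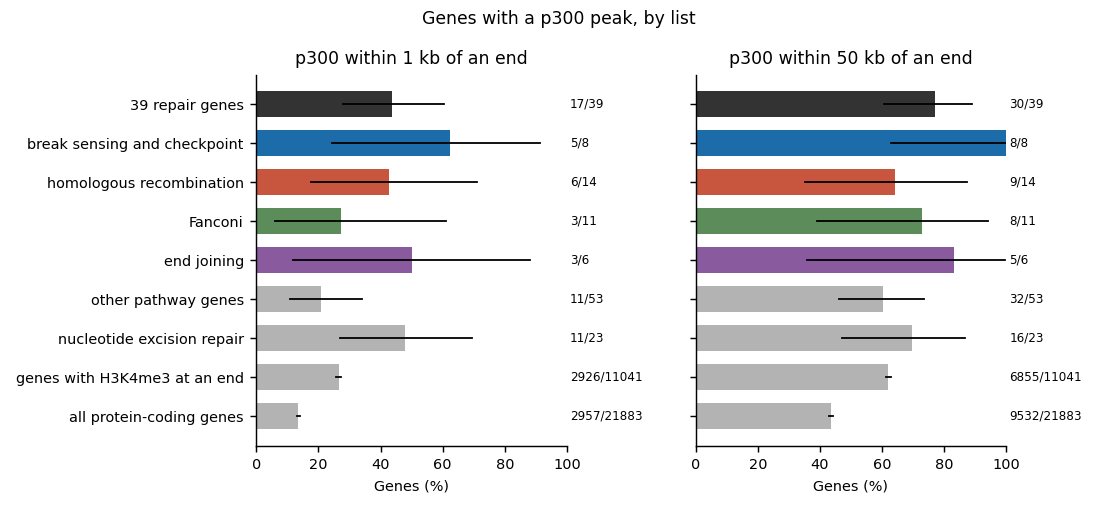
Share of genes with p300 within 1 kb (left) and 50 kb (right) of an annotated end, for all 39 repair genes, their 4 roles, 53 other pathway genes, 23 nucleotide excision repair genes, marked genes and all protein-coding genes, with exact 95% binomial intervals as lines and counts at the right. At an end the repair genes stand at 43.6%, the other pathway genes at 20.8% and the excision repair genes at 47.8%.

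Other genes of the same pathways stood near the background of marked genes in p300. Of 53 such genes, among them resection factors, end joining polymerases and checkpoint clamp subunits, 50 had H3K4me3 at an end (94.3%) with a median fold of 7.86, and 11 had p300 there (20.8%, 10.8 to 34.1%). Within 50 kb, 32 had p300 (60.4%). Their difference from the 39 genes has no test. The highest p300 folds at an end were those of Sfr1, a recombination mediator, at 9.11, Babam2, a subunit of a BRCA1 complex, at 7.99, Rmi1, a partner of BLM, at 6.71, and Aplf, an end joining scaffold, at 6.45. The genes without H3K4me3 at an end were Rbbp8, Faap20 and Rmi2, each with a peak in the gene or within 1 kb of it. Of 23 nucleotide excision repair genes, which remove ultraviolet lesions, 22 had H3K4me3 at an end with a median fold of 8.41, 11 had p300 there (47.8%, 26.8 to 69.4%), and 16 had it within 50 kb (69.6%).

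The promoter windows of the 32 genes with a listed start were set beside those of marked genes, with no test. They differed more in CpG ratio and in E2F, CCAAT, NRF1 and cell cycle homology region letters than in GC boxes. The NRF1 and cell cycle homology region values rest on 5 and 1 windows. The quartiles of the CpG ratio overlapped, at 0.681 to 0.961 in the 32 genes and 0.607 to 0.921 in marked genes. Marked genes have H3K4me3 at either end. A peak covered the first listed start of 75.2% of them, against 93.8% of the 32, so not every compared window is a marked promoter. The median observed to expected CpG ratio was 0.899, against 0.576 in 17491 protein-coding genes and 0.781 in 8963 marked genes, and the G and C content was 59.8%, against 56.3% and 61.3%. An E2F core stood in 7 of 32 windows (21.9%), in 5.12% of protein-coding genes and in 7.48% of marked genes. Those 7 were Topbp1, Brca1, Brip1, Rad51c, Fancf, Fancm and Lig4, of which Brca1, Brip1 and Fancm had p300 at an end. A CCAAT box stood in 59.4% of the 32, in 39.0% of protein-coding and in 39.9% of marked genes. An NRF1 motif was in 5 windows (15.6%, against 4.88% and 7.68%). The GC box was in 65.6%, against 46.3% and 66.9%. The ETS core was in 25.0%, against 11.9% and 19.7%, and the cAMP response element in 2 windows, those of Brca2 and Rad51c (6.25%, against 2.34% and 3.50%). The cell cycle homology region was in 1 window (3.12%, against 16.5% and 11.5%). In the 41 windows of other pathway genes an E2F core stood in 14.6%, a CCAAT box in 58.5% and an NRF1 motif in 4.88%. The ETS core was in 36.6% of these windows and the cell cycle homology region in 14.6%, and their median CpG ratio was 0.839. A match is a run of letters, not a bound site.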

How the data were processed

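Wild-type B16 CUT&Tag libraries for H3K4me3 and p300 were used, grouped by their titles, with 1 library each. The mm10 build, deepTools, Picard 2.22.4, Bowtie2 2.2.5 and Trim Galore appear in the submitters' processing notes, with no role stated. The caller and control library behind the peaks were not given in the sources used here. Peaks came as 1 list per library, deposited by the authors. Each deposited row holds a fold enrichment (a ratio of summit to background), a −log10 p and a −log10 q, the summit as an offset in bp from the peak start, and a score, which was the whole part of 10 times −log10 q at 27017 of 27019 H3K4me3 and at all 6512 p300 peaks. All of these are the authors' values and served to describe or rank peaks within a list.

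Genes came from RefSeq GRCm38.p6, and starts and promoter sequences from its promoter table. A peak counted at an end when it shared at least 1 bp with a window of 1 kb on either side of the annotated start or end of a gene, which counts promoters and 3′ ends together. Peaks off chromosomes 1 to 19, X and Y were left out. Summit reads and backgrounds were solved from the deposited fold and −log10 p, assuming a Poisson tail and 1 added to both. The solutions were whole numbers, with a tolerance of 0.002 on −log10 p, at 99.98% of H3K4me3 and 99.97% of p300 peaks. The method was tested on simulated data. Fragments were not counted from reads, and PCR copies are not independent, so intervals cover counting error only. Intervals for shares are exact (Clopper-Pearson, 95%) and treat genes as independent. Python 3.11.15, pandas 2.3.3, scipy 1.17.1 and matplotlib 3.10.9 were used.

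The members, gene lists, motifs and the rule for naming genes were chosen with earlier results of these data known. The rule names every member, and gives full values for those with p300 at an end, without H3K4me3 at an end, with the highest or lowest folds or leading their role. It also covers those with a shared peak, with most p300 nearby or with none within 100 kb. Of the other pathway genes, it names the 4 highest p300 folds and those without H3K4me3. The splits by H3K4me3 strength and by shared peaks or divergent starts were added after the data were seen. No test was run, since there are no replicates.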

Additional observations from a re-analysis of the deposited data

How the results depend on the processing

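Of 21 alternatives, 16 left the member counts within 1.5 times the value reported, or the median fold inside its 95% interval (7.64 to 9.59). These included windows of 500 bp and 2 kb, the listed start alone, summits in place of whole peaks, and distances of 25 and 100 kb. H3K4me3 at an end ranged from 33 of 39 members with the stronger part by fold (84.6%, all genes 34.4%) to 37 of 39, and was 31 of 32 by listed starts. The median fold ranged from 8.51 to 8.76. The 5 others kept only the stronger part of the p300 list, at or above its median. p300 at an end was then found at 10 members by fold (25.6%, all genes 6.93%) and 8 by −log10 q (20.5%, all genes 6.50%). In the gene or within 1 kb it was found at 13 by fold and 13 by −log10 q (33.3%, all genes 10.9% and 10.5%), and within 50 kb at 19 by −log10 q (48.7%, all genes 26.6%). The same cut by fold within 50 kb left 20 members (51.3%, all genes 26.9%), exactly at the limit and counted among the 16. These settings remove the weaker peaks by construction, and in each the share of members stayed above that of all genes. Shares of marked genes, the nearer comparison for p300, were not computed under these settings. As to depth, the weakest p300 summit at a member end, at Brip1, held 20 reads, and the smallest summit in the p300 list 14. No paired analysis was possible because each antibody has 1 library.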
